A study of Mus musculus with 6 samples.

Results

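The transcripts described here are the 5 expressed genes of the CCN family (Cyr61, Ctgf, Nov, Wisp1 and Wisp2, also named Ccn1 to Ccn5) together with Ankrd1, Amotl2 and Yap1. They were chosen by name, as secreted matrix-associated proteins and mechanosensitive genes linked to the co-activator YAP, with earlier results of these data known. They make up 8 of the 54532 genes in the deposited tables. They were measured by bulk RNA-seq in primary BMSCs (bone marrow mesenchymal stem or stromal cells) of wild-type mice, plastic-adherent marrow cells that give rise to osteoblasts. The cells were induced at 70% confluence and kept for 7 days in osteogenic medium (10 mM β-glycerophosphate, ascorbic acid at 50 μg/mL and, per the labels, dexamethasone at 100 nM), and the Ni group differed from the control group by the addition of 0.1 μM NiCl2. The study's methods give a lower dexamethasone concentration than the labels, and the strain, age and sex of the donor mice were not given in the sources used here. There were 3 control and 3 Ni libraries, numbered as replicates in the labels. The labels do not say whether they came from separate mice, so p-values measure the spread between these libraries, which may be technical.

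CCN proteins are secreted, modular proteins that sit in the extracellular matrix and signal through integrins and other surface receptors, and several of them are made by bone-forming cells. YAP, encoded by Yap1, and its relative TAZ, encoded by Wwtr1, enter the nucleus when cells are spread or under tension and switch on genes through the TEAD DNA-binding proteins. The LATS kinases of the Hippo pathway hold YAP and TAZ in the cytoplasm, and Cyr61, Ctgf, Ankrd1 and Amotl2 are among the most widely used readouts of YAP activity.

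The libraries held from 16101033 to 18642504 counts, and 14624 genes, all 8 members among them, passed edgeR's filter on low counts. Control replicate 3 stood apart from its group: over all tested genes its mean distance (1 minus Pearson's r of log2 CPM) was 0.0131 to the Ni libraries and 0.022 to the other controls. Whether its label and culture are right was not tested, since the tables hold no gene that checks a label, and every control mean and fold change here takes the label as given. Results are also given without it. Because it was singled out on these counts for its likeness to the Ni libraries, leaving it out selects for a larger difference, so the p-values of those fits show how much 1 library changes and are not independent evidence of a change. The labelled cell type was checked against marker genes. Stromal markers (10 of 10 tested) summed to 7410 to 10100 CPM (counts per library size after TMM scaling) in controls and 11500 to 13500 CPM in Ni libraries. The most highly counted of them was Col1a2, a type I collagen chain, at 4290 ± 1230 and 8410 ± 1130 CPM (SD, n = 3 each). Cxcl12, a marrow stromal chemokine, was lower in Ni libraries without overlap (2070 ± 276 and 1490 ± 128 CPM, log2 fold change -0.47, adjusted p = 0.292, edgeR), while Pdgfra, Lepr and Thy1 had log2 fold changes of 0.07, -0.13 and -0.07. Lum, Dcn, Col3a1, Eng and Pdgfrb were at 0.95, 0.8, 0.46, 0.25 and 0.21. At an unadjusted p under 0.05 in edgeR, 4 of the 10 were higher and 1 lower (7.59% and 5.83% of all genes). Their median log2 fold change was 0.23. Osteoblast markers (8 of 8 tested) summed to 5660 to 11500 CPM and 14800 to 20300 CPM. All 8 were higher at an unadjusted p under 0.05 in edgeR (7.59% of all genes), and all 8 without overlap (7.97%). Their median log2 fold change was 1.1, and none passed an adjusted p of 0.05. Macrophage markers (14 of 14 tested) summed to more than the stromal or the osteoblast markers in every library, from lists of unlike size. They were at 27500 to 32900 CPM in controls and 27700 to 28500 CPM in Ni libraries. The cultures thus held abundant macrophage transcripts beside those of the labelled cell type. Endothelial markers summed to 55.8 to 79.1 CPM and 50.8 to 53.5 CPM, adipocyte markers to 837 to 1170 CPM and 817 to 930 CPM, and neutrophil markers to 1.53 to 3.18 CPM and 2.04 to 2.24 CPM, where 3 of the 7 (S100a9, Ngp and Ltf) were at 0 in all 6 libraries and S100a8 and Camp had from 10 to 23 counts in each. The part of these cells in the values that follow was not tested. In bulk RNA, fewer cells of a type and less RNA per cell cannot be told apart.

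In these cultures 7 of the 8 genes had a higher mean in Ni than in control libraries and 1, Nov, had a lower one, but no change passed an adjusted p of 0.05. Wisp1 had the largest difference relative to its error, 1.75-fold higher in Ni. Ctgf was 1.32-fold and Yap1 1.39-fold higher, whereas Nov was at 0.773 of its control level. At an unadjusted p under 0.05, Wisp1, Ctgf and Yap1 were higher and Nov was lower, which is 3 of 8 and 1 of 8 genes against 7.59% and 5.83% of all genes tested (13.4% in either direction). Since the members were chosen with earlier results of these data known, these shares are a description and not an independent test. At an adjusted p under 0.05 the share of all genes was 0%, with a smallest adjusted p of 0.185 (Benjamini-Hochberg adjustment of the edgeR quasi-likelihood p), and DESeq2 called 1.79% of genes. The Ni libraries lay entirely above the controls for Ctgf and Wisp1 and entirely below them for Nov. Among all tested genes, 7.97% lay entirely above and 6.71% entirely below, 14.7% together. The median log2 fold change of the 8 genes was 0.33, where that of all tested genes was -0.01. Without control replicate 3, 7 of the 8 passed an adjusted p of 0.05 in edgeR, 6 of them higher (against 8.69% of all genes) and 1 lower (against 6.49%), where 15.2% of all genes passed. An exact two-sided permutation test cannot go below p = 0.1 in this design.

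**Figure D1:**
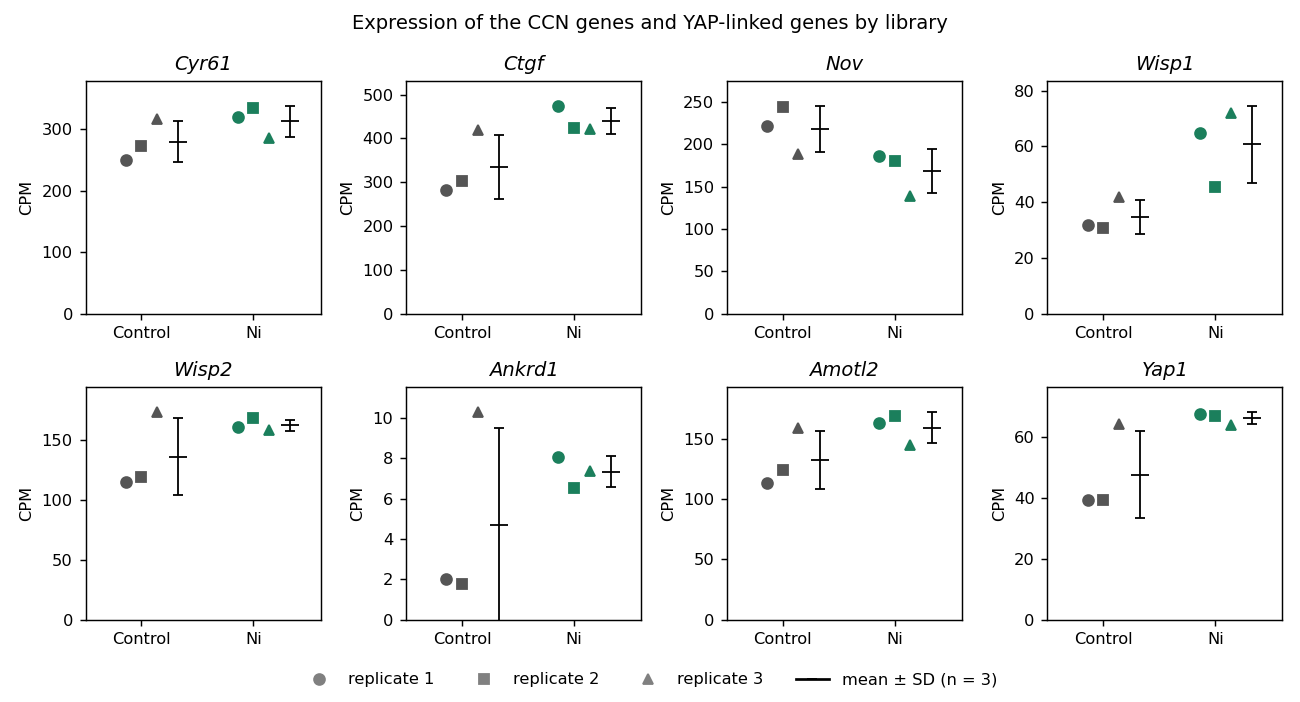
Expression of each gene in CPM (counts scaled to library size, y axis from 0), by group; each point is 1 library, its shape gives the replicate number, and the bar is the mean ± SD of 3 libraries (the lower end of the Ankrd1 control bar falls below 0 and is not drawn). Control replicate 3 (triangle) sits among the Ni libraries for Yap1, Cyr61 and Amotl2 and above them for Wisp2 and Ankrd1, whereas the Ni libraries are separate from all controls for Ctgf, Wisp1 and Nov.

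The TEAD proteins that carry YAP to DNA bind a short core element, CATTCC, which reads GGAATG on the other strand. The 250 bases before the transcription start were searched for it on both strands in RefSeq promoter windows (GRCm38.p6), which held 4 of the 8 genes: Cyr61, Ankrd1, Amotl2 and Yap1. Ctgf, Nov, Wisp1 and Wisp2 had no matched window. All 4 windows held the element, Ankrd1 at 2 positions, against 12.6% of all 32851 windows. In the related lists described below, it was in 40% of 25 windows of Hippo pathway genes and YAP partners. The share was 27.8% of 18 for SRF and MRTF targets and 22.2% of 9 for CCN receptors. It was 21.4% of 14 for other YAP and TEAD targets and 12.5% of 16 for immediate early genes. The 30 bases around each match are shown, read 5′ to 3′ on the strand of the gene with the element in capitals. The letters in capitals are set by the search itself, and the bases around them were not compared between the genes.
Cyr61, chr3:145650071-145650100, minus strand: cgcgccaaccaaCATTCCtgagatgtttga
Ankrd1 distal, chr19:36120037-36120066, minus strand: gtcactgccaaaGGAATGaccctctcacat
Ankrd1 proximal, chr19:36119950-36119979, minus strand: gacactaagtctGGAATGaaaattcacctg
Amotl2, chr9:102717727-102717756, plus strand: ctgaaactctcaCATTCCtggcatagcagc
Yap1, chr9:8004720-8004749, minus strand: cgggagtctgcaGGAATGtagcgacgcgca

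The element begins 103 bases before the start of Cyr61, 210 and 123 bases before that of Ankrd1, 65 bases before that of Amotl2 and 141 bases before that of Yap1. It reads CATTCC on the gene's strand in Cyr61 and Amotl2 and GGAATG in Ankrd1 and Yap1. The windows of Ankrd1 and Amotl2 also lie in exons of other annotated transcripts of the same genes, over 250 and 136 of their bases, and 17 bases of the Yap1 window lie in exons of another gene, Gm45494. Neither the AP-1 element TGANTCA, in 6.75% of all windows, nor a CArG box, the binding element of SRF, in 1.47%, was found in the 4 windows. No DNA binding was measured in these libraries, and a match of letters is a description only.

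Yap1 (ENSMUSG00000053110, chr9:7931999-8004596 of GRCm38, minus strand) encodes the co-activator itself. It was at 39.3, 39.4 and 64.2 CPM in control replicates 1 to 3 and at 67.7, 66.9 and 63.9 CPM in Ni replicates 1 to 3. Control replicates 1 and 2 were close to each other and well below the other libraries, and control replicate 3 was within the Ni range, so the groups overlapped. Controls averaged 47.7 ± 14.4 CPM and Ni libraries 66.2 ± 2.03 CPM (SD, n = 3 each). The log2 fold change was 0.47 with a standard error of 0.18 (unadjusted p = 0.0278, adjusted p = 0.34, edgeR), and an exact two-sided permutation test of the CPM gave p = 0.2. Without control replicate 3 it was 0.75 (adjusted p = 0.000354, edgeR), and with no filter on low counts 0.48 (adjusted p = 0.00322). Those fits called 2283 of 15044 and 1027 of 25876 genes at an adjusted p under 0.05. Of the exon bases of Yap1, 1.25% lie under the opposite-strand gene Gm20416, which had 0 counts in all 6 libraries.

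Wwtr1, which encodes TAZ, was at 33, 31.6 and 50.2 CPM in controls and 58.6, 46.1 and 56.5 CPM in Ni libraries (log2 fold change 0.49, standard error 0.18, adjusted p = 0.334, edgeR). Here too control replicates 1 and 2 were the lowest libraries and control replicate 3 fell among the Ni libraries. Per length, Yap1 was below Wwtr1 in every library: the ratio of their FPKM values (fragments per kilobase of gene, scaled for depth) was 0.615, 0.644 and 0.661 in controls and 0.597, 0.75 and 0.584 in Ni libraries. The groups overlapped in this ratio, while the means of both genes were higher in Ni libraries. All 4 TEAD genes had positive log2 fold changes, 0.46 for Tead1, 0.42 for Tead2, 0.33 for Tead3 and 0.81 for Tead4. Their standard errors were 0.15, 0.19, 0.16 and 0.4, and Tead4 had only 10 to 41 counts per library. Tead1 was the most abundant per length, at 3.1 ± 0.636 FPKM (SD, n = 3) in controls and 4.27 ± 0.534 FPKM (SD, n = 3) in Ni libraries, and Tead4 the least, at 0.258 ± 0.0742 and 0.455 ± 0.158 FPKM. The Ni libraries lay above all controls for Tead2, Tead3 and Tead4, as they did for 7.97% of all genes, but overlapped them for Tead1. No adjusted p of these genes was under 0.05 in edgeR.

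Ankrd1 (ENSMUSG00000024803, chr19:36111965-36119844, minus strand in the authors' table) encodes an ankyrin-repeat protein best known from stretched muscle. It was the lowest of the 8 genes, counted 37, 28 and 171 times in controls and 149, 114 and 134 times in Ni libraries. These are 2.02, 1.76 and 10.3 CPM against 8.09, 6.56 and 7.4 CPM. Control replicate 3 was the highest of all 6 libraries and the other 2 controls were the lowest, so the controls spanned the whole Ni range. The log2 fold change was 0.65 with a standard error of 0.63 (adjusted p = 0.695, edgeR; exact two-sided permutation test, p = 0.4). Without control replicate 3 it was 1.96 (adjusted p = 0.000292, edgeR), the most this group of genes moved when a single library was left out. Striated muscle markers summed to only 2.52 to 4.41 CPM in controls and 1.52 to 3.34 CPM in Ni libraries, with Myh6 at 0 in all of them.

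Amotl2 (ENSMUSG00000032531, chr9:102716672-102733418, plus strand) encodes an angiomotin-family protein that binds YAP at cell junctions and is itself switched on by YAP. Its level was 113, 124 and 159 CPM in controls and 163, 169 and 145 CPM in Ni libraries. Control replicate 3 lay above Ni replicate 3, and control replicates 1 and 2 lay below every Ni library. The log2 fold change was 0.27 with a standard error of 0.13 (unadjusted p = 0.0706, adjusted p = 0.404, edgeR; exact two-sided permutation test, p = 0.2), and 0.43 without control replicate 3 (adjusted p = 0.0116, edgeR). Its relatives Amot and Amotl1, named after their values were seen, had log2 fold changes of 0.39 and 0.33.

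Cyr61 (ENSMUSG00000028195, chr3:145646976-145649981, minus strand) encodes CCN1, an integrin-binding matrix protein that promotes cell adhesion and vessel growth. It was at 250, 272 and 317 CPM in controls and at 320, 334 and 286 CPM in Ni libraries. Control replicate 3 lay within the Ni range and Ni replicate 3 within the control range. The means of 280 ± 33.9 CPM and 313 ± 24.9 CPM (SD, n = 3 each) differed by less than the SD of the controls. The log2 fold change was 0.16 with a standard error of 0.12 (adjusted p = 0.574, edgeR; exact two-sided permutation test, p = 0.2). Cyr61 was the only one of the 8 that did not pass without control replicate 3 either, at 0.27 (adjusted p = 0.0848, edgeR).

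Ctgf (ENSMUSG00000019997, chr10:24595442-24598683, plus strand) encodes CCN2, a matrix protein that promotes cartilage and bone growth and fibrosis. It was at 283, 303 and 418 CPM in controls and at 474, 423 and 422 CPM in Ni libraries. Every Ni library was above every control, although Ni replicates 2 and 3 exceeded control replicate 3 by very little. The means were 334 ± 72.9 CPM and 439 ± 29.5 CPM (SD, n = 3 each) (log2 fold change 0.40, standard error 0.15, unadjusted p = 0.0243, adjusted p = 0.334, edgeR; exact two-sided permutation test, p = 0.1). It was 0.59 without control replicate 3 (adjusted p = 0.00106, edgeR) and 0.41 with no filter on low counts (adjusted p = 0.0211). At that threshold these fits called 2283 of 15044 and 1027 of 25876 genes. An antisense gene, Gm15270, covers 665 of the 2861 exon bases of Ctgf (23.2%) and had from 1 to 3 counts in each library. The library kit named in the labels does not mark strand, so reads of the shared bases cannot be assigned to one of the pair.

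Nov (ENSMUSG00000037362, chr15:54745702-54754039, plus strand) encodes CCN3, known as a brake on osteoblast differentiation. It was at 222, 244 and 189 CPM in controls and at 186, 181 and 139 CPM in Ni libraries, the opposite order to the other members. Control replicate 3 was the lowest control and only just above Ni replicate 1, and Ni replicate 3 was the lowest of all. The means were 218 ± 27.5 CPM and 169 ± 26 CPM (SD, n = 3 each) (log2 fold change -0.37, standard error 0.14, unadjusted p = 0.0226, adjusted p = 0.334, edgeR; exact two-sided permutation test, p = 0.1). Without control replicate 3 it was -0.46 (adjusted p = 0.0224, edgeR).

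Wisp1 (ENSMUSG00000005124, chr15:66891320-66923201, plus strand) encodes CCN4, a Wnt-inducible protein made by osteoblast precursors. It was at 31.7, 30.6 and 41.9 CPM in controls and at 64.7, 45.3 and 72 CPM in Ni libraries. All Ni libraries were above all controls, with Ni replicate 2 the closest to them. The means were 34.7 ± 6.21 CPM and 60.7 ± 13.8 CPM (SD, n = 3 each) (log2 fold change 0.81, standard error 0.19, unadjusted p = 0.00184, adjusted p = 0.241, edgeR; exact two-sided permutation test, p = 0.1). By its unadjusted p it ranked 109 among the 14624 genes tested. Its adjusted p was under 0.05 in DESeq2 (log2 fold change 0.81, adjusted p = 0.00588), where 256 of 14337 genes passed. With no filter on low counts in edgeR it was also under 0.05 (0.82, adjusted p = 2.49e-08), where 1027 of 25876 genes passed. The same held with the replicate number as a block (0.79, adjusted p = 0.0167, edgeR), where 315 of 14624 passed. Without control replicate 3 it held too (0.97, adjusted p = 0.00427, edgeR), where 2283 of 15044 passed. Leaving out any other library kept the log2 fold change between 0.66 and 0.98, with the adjusted p above 0.05 in edgeR.

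Wisp2 (ENSMUSG00000027656, chr2:163820861-163833146, plus strand) encodes CCN5, which lacks the carboxy-terminal module of its relatives. It was at 115, 119 and 173 CPM in controls and at 161, 168 and 158 CPM in Ni libraries. Control replicate 3 was the highest of all libraries, and the other controls were the lowest. The log2 fold change was 0.26 with a standard error of 0.15 (adjusted p = 0.472, edgeR; exact two-sided permutation test, p = 0.4), and 0.47 without control replicate 3 (adjusted p = 0.00296, edgeR). The remaining family member, Wisp3 (CCN6), was counted 0, 3 and 1 times in controls and 1, 0 and 0 times in Ni libraries, too few to be tested.

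**Figure D2:**
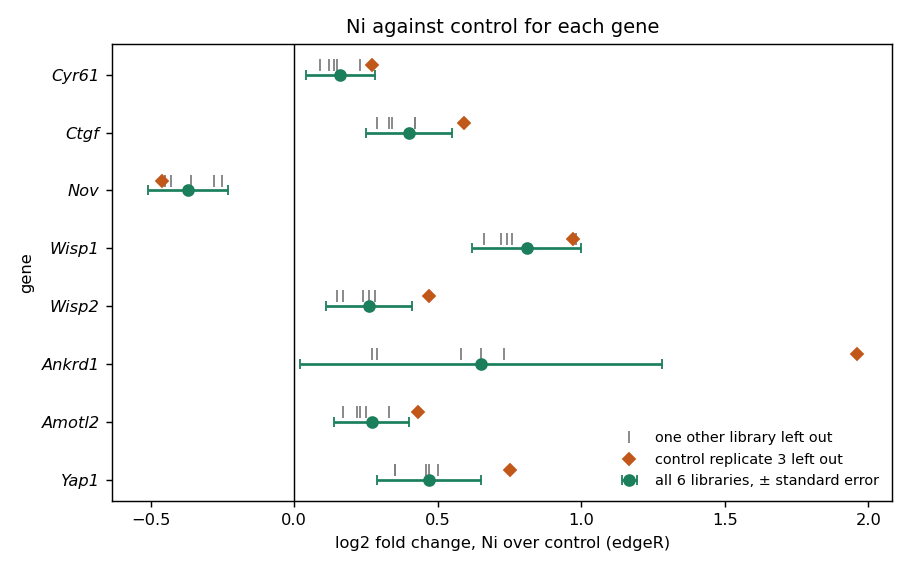
Log2 fold change of each gene, Ni over control (x axis), with all 6 libraries (circle, bar ± standard error of the edgeR fit), without control replicate 3 (diamond) and without each other library (ticks). All values are above 0 except those of Nov, and leaving out control replicate 3 moves Ankrd1 most, from 0.65 to 1.96.

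Set side by side on the FPKM scale, which divides by gene length, the CCN genes in controls ran from Cyr61 (137 ± 16.4 FPKM) and Ctgf (116 ± 25.1) through Nov (75.5 ± 9.63) and Wisp2 (70.1 ± 16.5) to Wisp1 (6.19 ± 1.1; SD, n = 3 each). The difference between Cyr61 and Ctgf, and that between Nov and Wisp2, was smaller than the SD of the more variable gene of each pair. Ctgf shares 23.2% of its exon bases with Gm15270, and how reads of those bases were counted is not given. If they were left out, the FPKM of Ctgf and its share of the CCN sum are too low. In Ni libraries Cyr61 (154 ± 11.9 FPKM) and Ctgf (153 ± 10.7) had nearly the same level, followed by Wisp2 (83.9 ± 2.17), Nov (58.4 ± 8.95) and Wisp1 (10.8 ± 2.5; SD, n = 3 each). The other 3 members were at 20.8 ± 3.73 FPKM in controls and 25.1 ± 1.98 in Ni libraries for Amotl2, 5.11 ± 1.53 and 7.11 ± 0.215 for Yap1, and 2.63 ± 2.71 and 4.14 ± 0.447 for Ankrd1 (SD, n = 3 each). Ankrd1 has a length of 1765 bases in the authors' table but 2886 exon bases in the GENCODE M21 annotation, so its FPKM depends on the gene model used.

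In the makeup of the CCN transcripts, the shares of Ctgf, Nov and Wisp1 did not overlap between the groups, while that of Cyr61 stayed close to a single value. The same genes did not overlap in CPM, where 14.7% of all tested genes did not. The shares add up to the whole, so a lower share of a gene raises those of the others. Cyr61 took from 32.7% to 35.1% of the summed CCN FPKM over all 6 libraries. The share of Ctgf was 27%, 26.9% and 31.3% in controls and 34.2%, 31.3% and 34.1% in Ni libraries. That of Nov was 21.1%, 21.6% and 14.1% in controls and 13.4%, 13.4% and 11.2% in Ni libraries. All Ni libraries were below the controls for Nov. For Ctgf they were above them only before rounding, since control replicate 3 and Ni replicate 2 both read 31.3%. Control replicate 3 was next to the Ni libraries in both cases. Wisp1 was a minor transcript at 1.4% to 1.61% of the sum in controls and 1.72% to 2.99% in Ni libraries, again without overlap. Wisp2 took 16.4%, 15.8% and 19.3% in controls and 17.3%, 18.5% and 19% in Ni libraries. Nov was more abundant than Wisp2 in control replicates 1 and 2 and less abundant in the other 4 libraries. The ratio of Nov to Wisp1, which brings the members with the lowest and the highest log2 fold change together and was formed after their values were seen, was 13.6, 15.5 and 8.76 in controls and 5.57, 7.77 and 3.74 in Ni libraries. The summed CCN FPKM was 363, 390 and 462 in controls and 483, 467 and 431 in Ni libraries, with overlap.

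**Figure D3:**
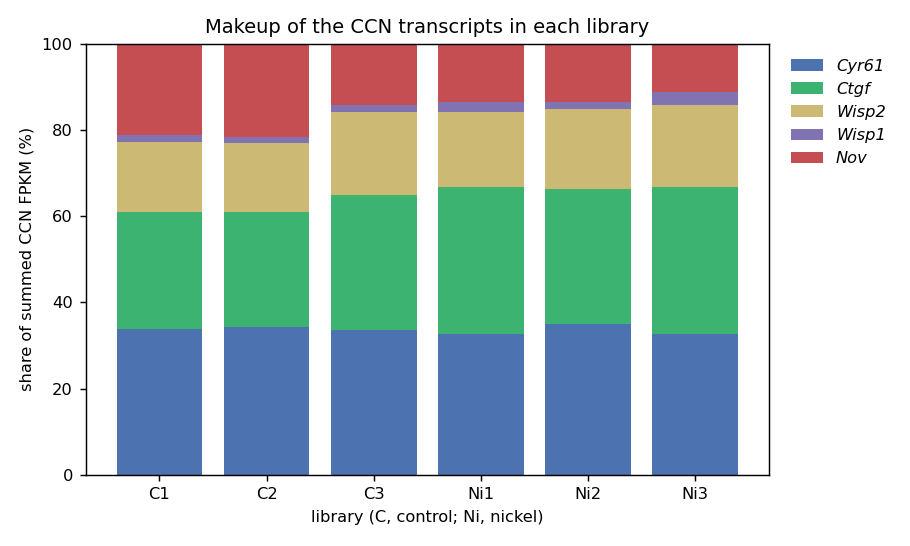
Share of each CCN gene (stacked, in percent of the summed CCN FPKM, y axis) in the 3 control and 3 Ni libraries. Nov takes 21.1% and 21.6% in C1 and C2, 14.1% in C3 and between 11.2% and 13.4% in the Ni libraries, while Cyr61 stays between 32.7% and 35.1%.

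Across the 6 libraries, which include both groups and control replicate 3, most members followed each other. Pearson's r of log2 CPM ran from -0.89, between Nov and Wisp1, to 0.99, between Cyr61 and Amotl2. Yap1 had an r of 0.98 with Ctgf and with Wisp2 and 0.97 with Ankrd1. Nov had a negative r with each of the other 7. Wisp1 followed Cyr61 least among the remaining pairs, with an r of 0.5. These values describe 6 points that share groups and library depth, and high values were common: from 243 genes, for Nov, to 759, for Yap1, had an r over 0.9 among about 8231 genes with a mean log2 CPM of at least 4. The closest genes were Vopp1 for Yap1 (r = 1 after rounding), Fam129b for Wisp2 (0.999), Capg for Ankrd1 (0.998), St6galnac6 for Ctgf (0.998), Psenen for Nov (0.998), Col16a1 for Amotl2 (0.997), Hdgf for Cyr61 (0.996) and Sgms2 for Wisp1 (0.996).

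**Figure D4:**
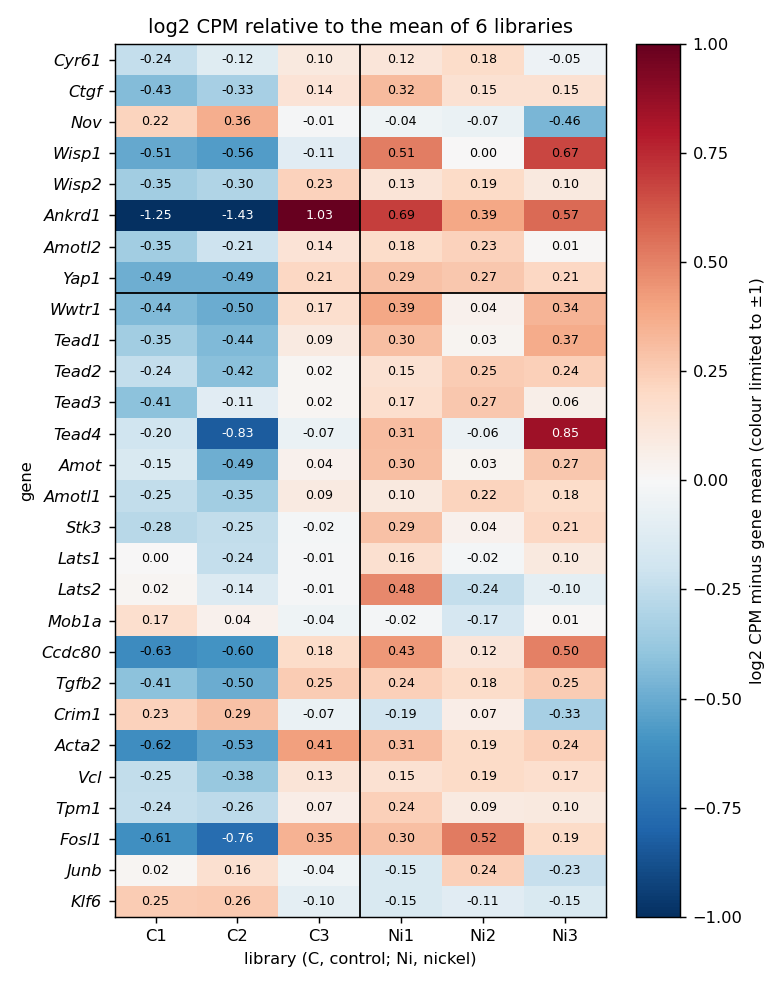
Log2 CPM of each gene minus its mean over the 6 libraries (colour and printed value; colour limited to ±1), for the 8 members above the line and related genes below it. C3 shares its sign with all 3 Ni libraries for Ctgf, Nov (at -0.01), Wisp2, Ankrd1, Amotl2 and Yap1, whereas for Wisp1 it is below the gene mean at -0.11.

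Other YAP and TEAD target genes were mostly higher in mean in Ni libraries, 12 of the 18 tested. Their median log2 fold change was 0.28, and 1, Ccdc80, was higher at an unadjusted p under 0.05 (7.59% of all genes). Ccdc80, which encodes a secreted matrix protein, was at 291, 295 and 507 CPM in controls and at 606, 487 and 637 CPM in Ni libraries. Control replicate 3 exceeded Ni replicate 2, so the groups overlapped. Its log2 fold change was 0.66 with a standard error of 0.22 (adjusted p = 0.314, edgeR). Tgfb2, a growth factor, was at 24.1, 22.7 and 38.1 CPM in controls and at 37.9, 36.4 and 38.1 CPM in Ni libraries, and the log2 fold change was 0.41 with a standard error of 0.18 (adjusted p = 0.372, edgeR). For Crim1, a membrane protein that binds bone morphogenetic proteins, the value was -0.30 (standard error 0.13, adjusted p = 0.372, edgeR). None of the 18 genes had groups without overlap, where 14.7% of all tested genes did. When control replicate 3 was left out, 7 were higher and 2 lower at an adjusted p under 0.05 in edgeR (8.69% and 6.49% of all genes), and the median was 0.52.

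Among 23 genes of the Hippo pathway and its YAP partners, 2 of which (Lats2 and Ptpn14) are also in the target list, the median log2 fold change was 0.13. At an unadjusted p under 0.05, 5 were higher, Stk3, Tead1, Wwtr1, Amotl1 and Amot, and 1 was lower, Wwc1, where 7.59% and 5.83% of all genes were. Stk3, an upstream kinase, was at 23.3, 23.8 and 27.8 CPM in controls and at 34.5, 29.1 and 32.8 CPM in Ni libraries, without overlap, and its log2 fold change was 0.36 with a standard error of 0.12 (adjusted p = 0.306, edgeR). Wwc1, a scaffold of the pathway that was named after its values were seen, was at -0.77 on the log2 scale (standard error 0.31, adjusted p = 0.35, edgeR). It had only 18 to 35 counts per library, and its Ni libraries lay below all controls (6.71% of all genes). The LATS kinases themselves, also named afterwards, had log2 fold changes of 0.16 for Lats1 (standard error 0.1) and 0.13 for Lats2 (standard error 0.18), both smaller relative to their error than that of Stk3. Mob1a, the LATS co-activator and the most abundant gene of the list per length, was at -0.12 on the log2 scale (standard error 0.11). With that control left out, 7 were higher and 1 lower at an adjusted p under 0.05 in edgeR, against 8.69% and 6.49% of all genes.

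The cell-surface receptors through which CCN proteins act were of mixed direction. Of 13 tested, 8 were above 0 on the log2 scale and the median was 0.11. The 2 at an unadjusted p under 0.05 (13.4% of all genes) were both lower (5.83%) and together form the leukocyte integrin αMβ2, a receptor found on macrophages. Itgam was at 363, 369 and 301 CPM in controls and at 296, 230 and 259 CPM in Ni libraries (log2 fold change -0.40, standard error 0.13, adjusted p = 0.306, edgeR), without overlap. Itgb2 was at 1240, 1350 and 738 CPM in controls and at 773, 798 and 704 CPM in Ni libraries, with control replicate 3 within the Ni range (log2 fold change -0.55, standard error 0.20, adjusted p = 0.334, edgeR). Of the macrophage markers, 3 of 14 were lower at an unadjusted p under 0.05 (5.83% of all genes), with a median log2 fold change of -0.15. Lrp1, an endocytic receptor that takes up CCN2, was at 1510, 1540 and 1990 CPM in controls and at 1870, 2290 and 1950 CPM in Ni libraries (log2 fold change 0.28, standard error 0.15, adjusted p = 0.433, edgeR). Leaving out control replicate 3 gave 4 of the 13 genes higher and 2 lower at an adjusted p under 0.05 in edgeR, against 8.69% and 6.49% of all genes.

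Target genes of SRF and its actin-sensing partners MRTF, a second route by which tension reaches the nucleus, were listed with Srf, Mkl1 and Mkl2. Those encode the factors themselves and had log2 fold changes of 0.05, -0.19 and -0.05. The whole list, called SRF and MRTF targets throughout, had a median log2 fold change of 0.28 over 15 genes, 10 of them positive. The 3 at an unadjusted p under 0.05, all higher (7.59% of all genes), were Vcl, Fhl1 and Tpm1. Vcl, the focal adhesion protein vinculin, was at 146, 134 and 190 CPM in controls and at 193, 198 and 196 CPM in Ni libraries, without overlap (log2 fold change 0.32, standard error 0.13, adjusted p = 0.347, edgeR). Tpm1, an actin-binding tropomyosin, was at 0.28 on the log2 scale (standard error 0.12) without overlap, and Fhl1, a LIM-domain protein, at 0.41 (standard error 0.18) with overlap. Acta2, smooth muscle actin and the most abundant of the list per length, was at 657, 703 and 1350 CPM in controls and at 1250, 1150 and 1200 CPM in Ni libraries. Control replicate 3 was its highest library, as it was for Ankrd1 and Wisp2. Smooth muscle markers, 3 of which (Acta2, Tagln and Cnn1) are also in this list, summed to 711 to 1440 CPM in controls and 1250 to 1350 CPM in Ni libraries, and their part in these values was not tested. Leaving out control replicate 3 gave 8 of the 15 genes higher and 0 lower at an adjusted p under 0.05 in edgeR, against 8.69% and 6.49% of all genes.

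Immediate early genes, which respond within minutes to serum and stretch, were of mixed direction too. Of 15 tested, 6 were above 0 on the log2 scale, and the median was -0.08. Klf6, a zinc-finger factor, was the only one at an unadjusted p under 0.05 (13.4% of all genes), at 310, 312 and 242 CPM in controls and 234, 241 and 234 CPM in Ni libraries (log2 fold change -0.29, standard error 0.12, adjusted p = 0.35, edgeR). Its Ni libraries lay below all controls, the nearest being control replicate 3. Fosl1, a subunit of AP-1, was at 23.1, 20.8 and 44.9 CPM in controls and at 43.6, 50.5 and 40.4 CPM in Ni libraries (log2 fold change 0.60, standard error 0.28, adjusted p = 0.394, edgeR). Klf2, a factor induced by fluid flow, was at 0.18 (standard error 0.09) and Junb, the most abundant of the list per length, at -0.08 (standard error 0.13). With control replicate 3 left out, 2 were higher and 2 lower at an adjusted p under 0.05 in edgeR, against 8.69% and 6.49% of all genes (15.2% together).

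**Figure D5:**
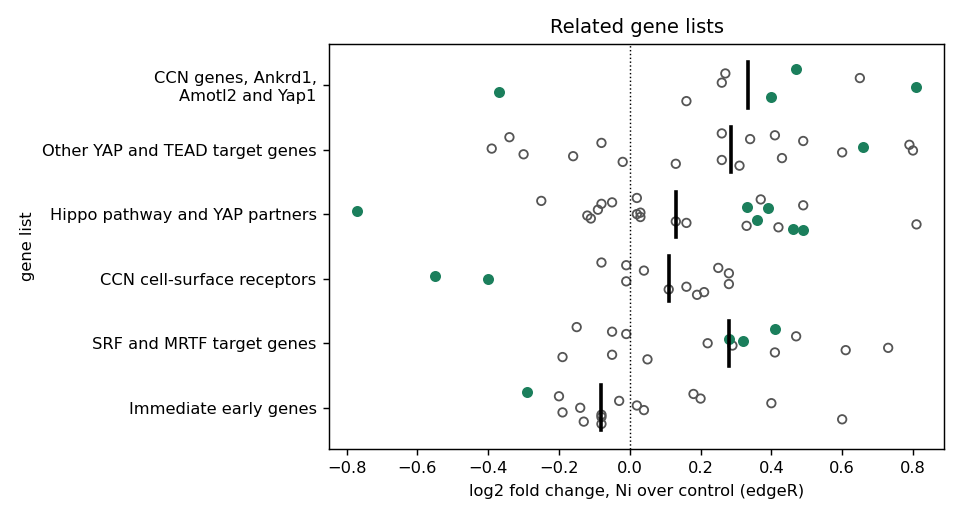
Log2 fold change, Ni over control (x axis), of every tested gene (points; filled where the unadjusted edgeR p was under 0.05) in 6 lists, with the median of each list as a vertical bar. The medians are 0.33 for the 8 members, 0.28 for other YAP and TEAD targets and for SRF and MRTF targets, 0.13 for the Hippo genes, 0.11 for the receptors and -0.08 for the immediate early genes.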

How the data were processed

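Libraries were made from fragmented mRNA with the NEBNext Ultra RNA kit, per the labels. The authors deposited whole-number read counts for 54532 genes, without normalization, and FPKM values that equal these counts divided by gene length and a factor per library (largest relative deviation 3.29e-07). The build is GRCm38. The aligner, counter and strand setting are not given in the sources used here.

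Counts were filtered with filterByExpr, normalized by TMM and tested in edgeR 4.0.16 (R 4.3.3; robust quasi-likelihood F test, with 0.125 as the prior count), 3 control against 3 Ni libraries, with Benjamini-Hochberg adjustment over 14624 genes. The standard error was the unshrunk coefficient over the root of F. CPM values are TMM-normalized, and log2 CPM used a prior count of 2. Alternatives were DESeq2 1.42.0, limma 3.58.1 on log2(FPKM + 1) and log2(FPKM + 0.1), other scalings and filters, a replicate block and leaving out each library. The test scripts were tested on simulated data. No pair of libraries within a group was a duplicate (chi-square per degree of freedom 3.65 to 31.5).

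The members and lists were chosen with earlier results of these data known. The genes named were all members, Wisp3, Wwtr1 and Tead1 to Tead4, from each list the 3 with the smallest unadjusted p and the 1 with the highest FPKM, and the gene most like each member. Exon overlaps came from GENCODE M21 and promoters from RefSeq.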

Additional observations from a re-analysis of the deposited data

How the results depend on the processing

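No log2 fold change of a member changed sign under any alternative. With no filter on low counts, Ctgf (0.41, adjusted p = 0.0211), Wisp1 (0.82, adjusted p = 2.49e-08) and Yap1 (0.48, adjusted p = 0.00322) passed in edgeR, and DESeq2 called Wisp1 (0.81, adjusted p = 0.00588). The count of all genes at an adjusted p under 0.05, 0 in edgeR, was 256 with DESeq2 and 1027 with no filter. At an unadjusted p under 0.05 it was 1963 of 14624 genes, and 3057 of 25876 with no filter. With DESeq2 it was 2020 of 25876. Of 14624 genes, it was 1962 with DESeq2 size factors, 1964 with library totals, and 1755 and 1754 with limma. The other YAP and TEAD targets at an unadjusted p under 0.05, 1 of 18, numbered 3 with DESeq2, 2 with its size factors and with library totals, 11 with no filter and 3 with limma at either pseudocount. The receptors, 2 of 13, numbered 5 with no filter and 1 with limma at either pseudocount. The SRF and MRTF targets, 3 of 15, numbered 6 with no filter, and the immediate early genes, 1 of 15, numbered 2 with DESeq2 and 3 with no filter. The cause was not tested. The deviations of libraries with the same number had correlations of 0.01, 0.26 and 0.14. Libraries with different numbers were not compared, so these values cannot decide whether the libraries were paired. A fit with the replicate block called 315 genes at an adjusted p under 0.05, and Wisp1 was at 0.79 (adjusted p = 0.0167). In that fit 8 of the 18 other targets had an unadjusted p under 0.05, where 2769 of all 14624 genes did. Over the fits that left out a single library, log2 fold changes ranged from 0.09 to 0.27 for Cyr61, 0.29 to 0.59 for Ctgf, -0.46 to -0.25 for Nov, 0.66 to 0.98 for Wisp1, 0.15 to 0.47 for Wisp2, 0.27 to 1.96 for Ankrd1, 0.17 to 0.43 for Amotl2 and 0.35 to 0.75 for Yap1. Among these fits the adjusted p was under 0.05 for a member only without control replicate 3. The counts ranged from 0 to 2283 at an adjusted p under 0.05 (13 without Ni replicate 2), from 868 to 4125 at an unadjusted p under 0.05, and from 2944 to 6477 for groups without overlap. Leaving a library out makes groups without overlap easier to reach, and with all 6 libraries that count was 2147. Among the lists, counts at an unadjusted p under 0.05 ranged from 1 to 13 for other targets, 1 to 10 for Hippo genes, 1 to 7 for receptors, 0 to 10 for SRF and MRTF targets and 0 to 5 for immediate early genes, the highest each time without control replicate 3. The share of all genes was highest there too, at 4125 of 15044, against 868 of 14991 without control replicate 2. Among the members, depth limits Ankrd1 most, with 28 counts in its lowest library.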
